A study of Mus musculus with 9 samples.

Results

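A set of 35 type I interferon-stimulated genes was examined in regulatory T cells (Treg cells) of the mouse spleen. The members were chosen by symbol from the 26683 genes of the count table, and all 35 were found there and were among the 12738 genes with enough counts to test. The data were bulk RNA sequencing of CD4+ cells sorted for a yellow fluorescent Foxp3 reporter, with 1 library from each of 9 female mice of 2 to 3 months. The 4 knockout mice (KO) were EsrrgNf/f.Foxp3YFP-Cre and the 5 control mice (WT) were B6N.Foxp3YFP-Cre, so that both groups expressed the reporter and Cre recombinase from the Foxp3 locus and KO mice carried floxed Esrrg in addition. Esrrg encodes the nuclear receptor estrogen-related receptor gamma, and the groups differ in whether Cre could act on its gene. Bracketed library names start with Err for KO and B6-N for WT, and a difference of strain or colony, if these names mark one, cannot be told apart from genotype. Values are given as CPM (counts scaled to the library, the unit used throughout), for both all 9 libraries and the 8 without WT 4, because the members stood apart in WT 4.

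Type I interferons (interferon alpha and beta) bind a receptor made of IFNAR1 and IFNAR2, which activates the kinases JAK1 and TYK2. These phosphorylate transcription factors that join IRF9 in a complex called ISGF3, which binds interferon-stimulated response elements near the start of its target genes. The targets include sensors of viral RNA, enzymes that degrade RNA or modify proteins, and regulators of the response itself, and resting lymphocytes hold many of them at a low level through tonic signalling. Interferon gamma acts mainly through a different motif, the gamma-activated site, and many genes, Irf1 among them, respond to it.

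The promoters of 24 of the 35 members were in a RefSeq table (GRCm38.p6). The 250 bases before each listed start were searched on both strands. Some genes had more than 1 listed start, and a gene was counted if any of its windows matched. The other 11 members had no promoter listed, Ly6a and Ifi27l2a among them, which passed the test without WT 4. The core of the interferon-stimulated response element was present in 8 of the 24 members (33.3%), against 3.46% of 27025 genes of the table. These 8 members were Isg15, Ifit1, Ifit3, Oas1a, Oas3, Rsad2, Bst2 and Trim30a. The gamma-activated site TTCNNNGAA, which can overlap the first motif, was also present in 8 members (33.3%), against 8.13% of all genes, and Oas1a and Bst2 held both. The element bound by estrogen-related receptors, TNAAGGTCA, was in 0 of the 24 members' windows, against 1.30% of all genes. A match of letters is a description and not evidence of a bound site. The following promoters are printed because Oas3 passed the test without WT 4, Isg15 and Ifit1 varied strongly between libraries, and Irf1 is a member with the gamma-activated site alone that varied little. They were chosen after the values were seen. Irf1 had another listed start, whose window did not hold the site.
Oas3 (chr5:120777660-120777909, minus strand, response element in capitals): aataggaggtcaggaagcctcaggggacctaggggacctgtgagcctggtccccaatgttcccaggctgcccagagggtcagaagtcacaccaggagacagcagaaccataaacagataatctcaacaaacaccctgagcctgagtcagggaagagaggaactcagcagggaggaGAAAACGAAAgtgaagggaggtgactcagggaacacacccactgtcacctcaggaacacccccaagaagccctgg
Isg15 (chr4:156200819-156201068, minus strand, overlapping response elements in capitals): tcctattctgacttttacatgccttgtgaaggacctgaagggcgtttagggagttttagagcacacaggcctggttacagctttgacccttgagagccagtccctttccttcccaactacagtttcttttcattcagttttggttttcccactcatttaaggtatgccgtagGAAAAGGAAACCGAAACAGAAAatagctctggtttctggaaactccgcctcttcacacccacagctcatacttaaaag
Ifit1 (chr19:34640639-34640888, plus strand, response elements in capitals): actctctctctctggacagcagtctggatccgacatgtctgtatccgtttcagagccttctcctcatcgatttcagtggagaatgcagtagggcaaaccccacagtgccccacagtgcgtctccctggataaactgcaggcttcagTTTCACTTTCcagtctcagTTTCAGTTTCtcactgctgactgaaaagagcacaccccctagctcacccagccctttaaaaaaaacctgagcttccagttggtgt
Irf1 (chr11:53769764-53770013, plus strand, gamma-activated site in capitals): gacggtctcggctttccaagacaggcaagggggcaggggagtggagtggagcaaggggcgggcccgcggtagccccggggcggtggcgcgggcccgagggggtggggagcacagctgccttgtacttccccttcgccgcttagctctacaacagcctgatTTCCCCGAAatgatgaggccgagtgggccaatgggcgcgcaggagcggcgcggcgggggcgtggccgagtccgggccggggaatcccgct
In the Oas3 window the element began 75 bases before the start, and in the Ifit1 window there were 2 separate elements, beginning 104 and 85 bases before it. The Isg15 window held 3 overlapping matches, the outermost of which began 78 and 66 bases before the start.

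Library totals were similar, at 15386929 to 17425634 counts in KO and 15269014 to 16874301 in WT. Esrrg itself had 0 counts in each of the 9 libraries, so the targeted gene could not check the labels. Treg identity was checked by 7 markers that summed to 4339.6 to 4673 CPM in KO and 4382 to 4633 CPM in WT, with Foxp3 at 535 to 601 CPM in KO and 533 to 598 CPM in WT. KO 1 and KO 4 carried more transcripts of other cells than the rest. Their 11 plasma cell markers summed to 2105 and 4662 CPM, against 1169 and 1469 CPM in KO 2 and KO 3 and 1058 to 1273 CPM in WT. KO 4 also went against its label as female, with 27 counts of Xist where the other 8 libraries had 27355 to 35693. Its 4 Y-linked genes summed to 2 counts, against 0 in the other KO libraries and 0 to 23 in WT. In bulk RNA, fewer cells of a type and less RNA per cell cannot be told apart.

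Most members had a slightly higher level in KO than in WT, and few of the differences passed the test. WT 4 was the highest of all 9 libraries in 18 members, against 7.80% of all tested genes. With all libraries, 1 of 35 members passed an adjusted p of 0.05 as higher in KO, against 1.4% of all tested genes, and 0 of 35 as lower, against 1.88% (edgeR's quasi-likelihood test with Benjamini-Hochberg adjustment over all tested genes). At an unadjusted p under 0.05, 5 members were higher in KO and 0 lower, against 11.1% of all genes higher. DESeq2 called 4 members higher (Ly6a, Oas3, Isg20 and Ifi27l2a), against 3.57% of all tested genes, and 0 lower, against 3.64%. The log2 fold change (KO over WT) was positive for 27 members and negative for 8, with a median of 0.09, where the median of all tested genes was 0.0052 and 51.5% were positive. In 0 members were the KO and WT libraries free of overlap, against 4.15% of all tested genes with KO above WT and 4.92% with KO below WT.

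Without WT 4, 3 members passed as higher in KO (Ly6a, Oas3 and Ifi27l2a), against 0.347% of 12662 tested genes, and 0 as lower, against 0.711%. At an unadjusted p under 0.05, 15 members were higher and 0 lower, against 8.59% of all genes higher. DESeq2 called 8 members higher (Ly6a, Oas3, Ifi27l2a, Isg15, Isg20, Bst2, Parp9 and Xaf1), against 2.08% of all tested genes, and 0 lower, against 2.16%. In what follows, a member passed where edgeR called it. The log2 fold change was positive for 33 members and negative for 2, Ifit2 and Irf1, with a median of 0.18 against 0.0042 over all tested genes. In 8 members every KO library was above the 4 remaining WT libraries, against 5.17% of all tested genes, and in 0 members was every KO library below them, against 5.77%. These were Isg15, Oas3, Rsad2, Isg20, Eif2ak2, Parp9, Ly6a and Ifi27l2a. WT 4 was set aside because the members were high in it, so these counts describe the 8 libraries and are not independent of that choice.

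**Figure D1:**
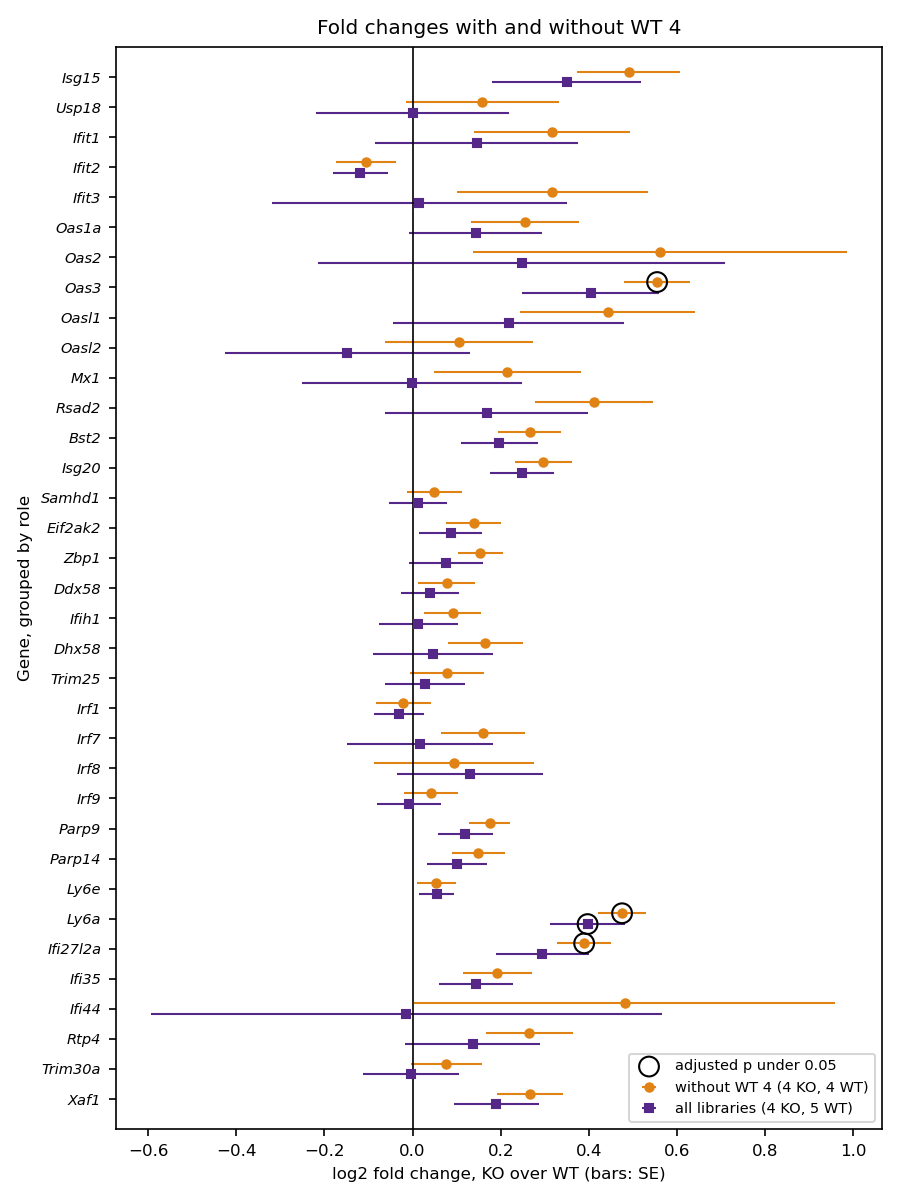
Log2 fold change of each member, KO over WT, with its standard error, in the fit of all libraries (squares) and without WT 4 (circles), with rings around values whose adjusted p was under 0.05. Most members lie further to the right without WT 4, and the ringed members are Ly6a in both fits and Oas3 and Ifi27l2a without WT 4.

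Ly6a was the only member past the threshold in both fits. It encodes Sca-1, a small surface protein anchored by a lipid tail that marks haematopoietic stem cells and rises in lymphocytes on interferon exposure. It lies on chromosome 15 (mm10, 74994877 to 74998031, minus strand) and overlaps no other annotated gene. Its CPM was 105, 103, 92.2 and 102 in KO 1 to KO 4, against 72.5, 67.0, 76.3, 93.3 and 72.5 in WT 1 to WT 5. The highest WT library, WT 4, was just above the lowest KO library, KO 3, and the remaining WT libraries lay below every KO library. The mean was 100.5 ± 5.64 CPM in KO (SD, n = 4) and 76.3 ± 10.04 CPM in WT (SD, n = 5). The log2 fold change was 0.40 ± 0.08 (SE, edgeR adjusted p = 0.0343), and 0.48 ± 0.05 without WT 4 (adjusted p = 0.00231). With all libraries, the call was lost when any 1 of WT 1, WT 3, WT 5, KO 1, KO 2 or KO 4 was left out, with adjusted p from 0.0596 to 0.101 and log2 fold changes of 0.38 to 0.39. It was also lost without KO 1 and KO 4 together (log2 fold change 0.36, edgeR adjusted p = 0.250) and with the level of other cells' markers as a covariate (0.36, adjusted p = 0.162). Without WT 4, Ly6a passed in 18 of 19 alternative runs, among them all 8 that left out 1 more library. It was lost there with the replicate number in the sample titles as a block (0.47, edgeR adjusted p = 0.183).

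Ly6e, the other member of this family, encodes a widely expressed surface protein that hinders the entry of some viruses, and it had the highest level of the members per transcript length. It had 1733, 1587, 1649 and 1589 CPM in KO 1 to KO 4, against 1503, 1634, 1583, 1589 and 1584 CPM in WT 1 to WT 5. The groups overlapped, and WT 4 lay within the range of the other WT libraries. Its log2 fold change was 0.05 ± 0.04 (SE, edgeR adjusted p = 0.442), and also 0.05 ± 0.04 without WT 4 (adjusted p = 0.536).

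The OAS genes encode sensors of double-stranded RNA that make 2'-5' linked oligoadenylates and so activate the ribonuclease RNase L, or, in the case of the OAS-like genes, related proteins of which some lack that activity. Oas1a, Oas2 and Oas3 lie together on chromosome 5, and Oasl1 and Oasl2 lie elsewhere on the same chromosome. Oas3 (mm10, chromosome 5, 120753098 to 120777661, minus strand) had 59.6, 67.9, 74.9 and 61.6 CPM in KO 1 to KO 4, against 47.8, 42.4, 43.8, 70.2 and 45.1 CPM in WT 1 to WT 5. All KO libraries were above WT 1, WT 2, WT 3 and WT 5, and WT 4 lay within the KO range. The log2 fold change of Oas3 was 0.40 ± 0.16 with all libraries (SE, edgeR adjusted p = 0.183) and 0.55 ± 0.07 without WT 4 (adjusted p = 0.00606). Without WT 4, Oas3 passed when any other single library was left out, and when KO 1 and KO 4 were left out together (log2 fold change 0.67, edgeR adjusted p = 0.0015). As with Ly6a, the call was lost with the replicate number in the sample titles as a block (0.59, edgeR adjusted p = 0.178). With all libraries, Oas3 passed in 3 of 20 alternative runs, and Ly6a in 10 of 20.

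Oas1a had 17.4, 20.1, 24.4 and 25.0 CPM in KO 1 to KO 4, against 21.2, 16.98, 16.7, 25.8 and 17.8 CPM in WT 1 to WT 5, and the groups overlapped. Its log2 fold change was 0.14 ± 0.15 (SE, edgeR adjusted p = 0.615), and 0.25 ± 0.12 without WT 4 (adjusted p = 0.299). Oas2 ranged widely, at 7.52, 29.4, 30.4 and 22.3 CPM in KO 1 to KO 4, against 15.9, 11.3, 15.6, 33.8 and 17.6 CPM in WT 1 to WT 5. KO 1 was the lowest of all libraries and WT 4 the highest, and the SE of its log2 fold change without WT 4 (0.56) was 0.42 (edgeR adjusted p = 0.52). Oasl1 had 5.64 to 11.5 CPM in KO and 6.24 to 12.5 CPM in WT, and Oasl2 had 12.0 to 20.7 CPM in KO and 12.0 to 29.3 CPM in WT. In each of Oas2, Oasl1 and Oasl2 the lowest KO library was KO 1 and the highest WT library was WT 4, and none of the 3 passed in either fit.

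ISG15 is a ubiquitin-like protein that is joined to other proteins on interferon exposure, and USP18 removes it and also blocks the interferon receptor. Isg15 had 26.7, 28.2, 36.4 and 24.2 CPM in KO 1 to KO 4, against 20.7, 19.8, 19.1, 31.4 and 22.4 CPM in WT 1 to WT 5. Every KO library was above the WT libraries other than WT 4, which was second only to KO 3. The log2 fold change was 0.35 ± 0.17 (SE, edgeR adjusted p = 0.268), and 0.49 ± 0.12 without WT 4 (adjusted p = 0.0701). Usp18 had 30.4, 51.5, 50.6 and 37.4 CPM in KO 1 to KO 4, against 41.5, 33.8, 39.0, 60.6 and 37.3 CPM in WT 1 to WT 5. KO 1 was the lowest library and WT 4 the highest. Its log2 fold change was -3.83e-05 ± 0.22 (SE, edgeR adjusted p = 0.9999), and 0.16 ± 0.17 without WT 4 (adjusted p = 0.664).

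The IFIT proteins bind viral RNA that lacks the cap marks of host RNA, and their genes lie side by side on chromosome 19. Ifit1 had 36.5, 47.4, 60.7 and 36.1 CPM in KO 1 to KO 4, against 31.3, 35.7, 38.3, 59.5 and 39.2 CPM in WT 1 to WT 5. Ifit3 had 14.2, 20.9, 30.1 and 18.5 CPM in KO, against 17.04, 14.4, 19.2, 36.6 and 16.2 CPM in WT. For both genes KO 3 and WT 4 stood above the other 7 libraries. Ifit2 did not share this pattern, with 71.1, 78.9, 82.5 and 67.1 CPM in KO 1 to KO 4 and 81.2, 78.7, 85.9, 84.7 and 76.0 CPM in WT 1 to WT 5. Its log2 fold change was -0.12 ± 0.06 (SE, edgeR adjusted p = 0.282), that of Ifit1 was 0.15 ± 0.23 (adjusted p = 0.758) and that of Ifit3 was 0.02 ± 0.33 (adjusted p = 0.985). Reads of Ifit3 could be shared with its near-identical neighbour Ifit3b, which had 40 to 122 counts per library.

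**Figure D2:**
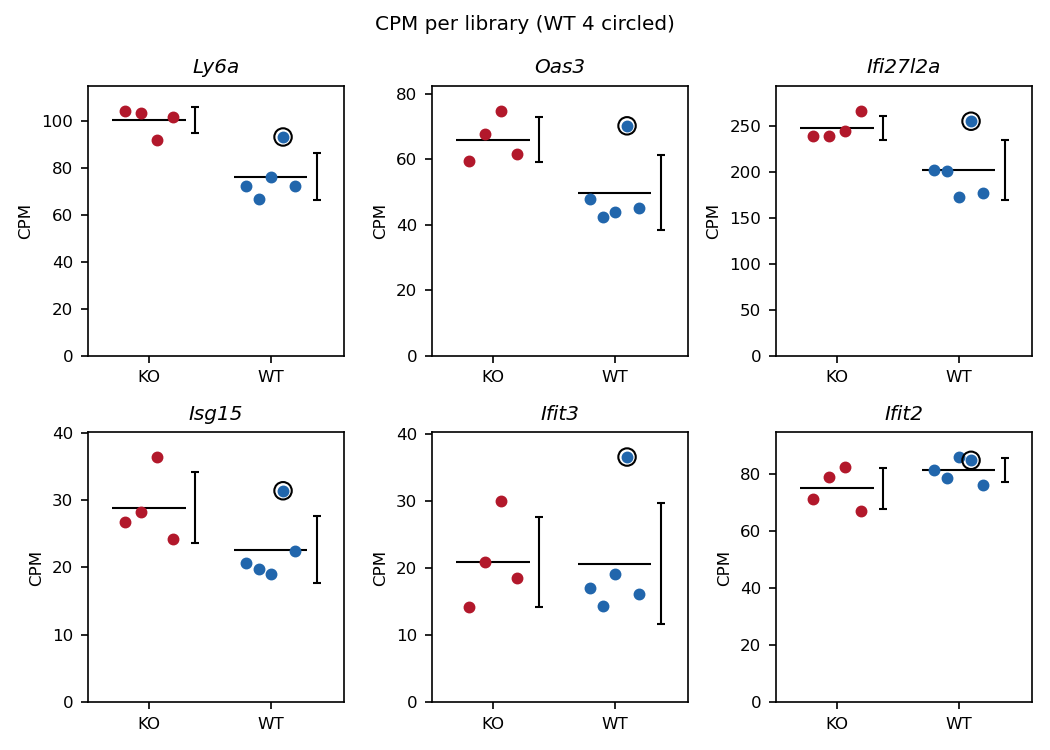
CPM of 6 members in each library, with KO in red on the left and WT in blue on the right, a line at the group mean, bars of 1 SD (n = 4 KO and 5 WT) and a ring around WT 4. WT 4 lies at the level of the KO libraries for Ly6a, Oas3, Ifi27l2a and Isg15, above all of them for Ifit3, and within the WT range for Ifit2.

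The direct antiviral effectors were 7 members. Samhd1, which degrades the nucleotides that viruses need for DNA synthesis, had 1175, 1366, 1428 and 1267 CPM in KO 1 to KO 4, against 1196, 1233, 1266, 1444 and 1353 CPM in WT 1 to WT 5. The groups overlapped through their whole range, and its log2 fold change was 0.01 ± 0.07 (SE, edgeR adjusted p = 0.94). Zbp1, a sensor of Z-form nucleic acid that can start cell death, had 164, 173, 191 and 175 CPM in KO, against 156, 153, 157, 204 and 165 CPM in WT. WT 4 was its highest library, and its log2 fold change was 0.08 ± 0.08 (SE, edgeR adjusted p = 0.637), and 0.15 ± 0.05 without WT 4 (adjusted p = 0.155). Isg20, an exonuclease for RNA, came closest to the threshold among the members that edgeR did not call in either fit, and DESeq2 called it in both (adjusted p = 0.0442 with all libraries and 0.0121 without WT 4). It had 43.3, 37.1, 45.0 and 43.0 CPM in KO 1 to KO 4, against 34.1, 36.1, 32.5, 40.4 and 34.1 CPM in WT 1 to WT 5. WT 4 alone of the WT libraries reached the KO range, and the log2 fold change was 0.25 ± 0.07 with it (SE, edgeR adjusted p = 0.0782) and 0.30 ± 0.07 without it (adjusted p = 0.0537).

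The other 4 effectors did not pass edgeR in either fit, and DESeq2 called 1 of them, Bst2, without WT 4 (adjusted p = 0.0443). Bst2 (tetherin), which holds budding virus on the cell surface, had 42.7 to 54.9 CPM in KO and 40.6 to 52.2 CPM in WT. Eif2ak2 encodes the kinase PKR, which stops translation on double-stranded RNA, and had 64.2 to 77.8 CPM in KO and 60.3 to 73.9 CPM in WT. Rsad2 (viperin), which makes a chain-terminating nucleotide, had 9.75 to 14.7 CPM in KO and 8.03 to 16.8 CPM in WT. Mx1 had 12.1 to 22.6 CPM in KO and 12.9 to 25.2 CPM in WT, and most laboratory mouse strains, C57BL/6 among them, carry a defective allele of this gene. In all 4 genes the top KO library was KO 3 and the top WT library was WT 4.

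None of the 4 RNA sensors passed in either fit. Ddx58 encodes RIG-I, which recognises short double-stranded RNA with a 5' triphosphate, and had 141, 164, 166 and 143 CPM in KO 1 to KO 4, against 154, 136, 144, 166 and 147 CPM in WT 1 to WT 5. Trim25, a ubiquitin ligase that acts with RIG-I, had 124, 156, 149 and 124 CPM in KO, against 127, 119, 137, 155 and 139 CPM in WT. The groups overlapped in both genes, and the log2 fold changes were 0.04 ± 0.07 for Ddx58 (SE, edgeR adjusted p = 0.769) and 0.03 ± 0.09 for Trim25 (adjusted p = 0.894). Ifih1 (MDA5), the sensor of long double-stranded RNA, had 55.9 to 68.0 CPM in KO and 54.5 to 73.9 CPM in WT, and Dhx58 (LGP2), a relative that tunes both sensors, had 42.7 to 55.7 CPM in KO and 38.8 to 59.8 CPM in WT. For these 2 genes KO 3 was again the top KO library and WT 4 the top WT library.

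Among the interferon regulatory factors, Irf1 and Irf9 had the most counts. Irf1, a factor induced by both interferon types, had 319, 302, 277 and 274 CPM in KO 1 to KO 4, against 297, 268, 307, 310.1 and 314 CPM in WT 1 to WT 5. Irf9, the DNA-binding part of ISGF3, had 177, 213, 200.2 and 194 CPM in KO, against 188, 176, 191, 227 and 204 CPM in WT. Neither separated the groups, with log2 fold changes of -0.03 ± 0.06 for Irf1 (SE, edgeR adjusted p = 0.794) and -0.01 ± 0.07 for Irf9 (adjusted p = 0.962). Irf7, which amplifies the production of interferon alpha, had 86.1 to 117 CPM in KO and 81.7 to 139 CPM in WT, with WT 4 highest. Irf8 ran against the other members, at 40.9 and 44.3 CPM in KO 1 and KO 4, 26.5 and 26.7 CPM in KO 2 and KO 3, and 28.7 (WT 4) to 34.6 CPM in WT. Irf8 is also a factor of B cells, dendritic cells and macrophages, and its 2 highest libraries were those in which B cell markers were highest, at 157 and 178 CPM in KO 1 and KO 4, 95.9 and 96.9 CPM in KO 2 and KO 3, and 76.8 to 109 CPM in WT. With all libraries the log2 fold change of Irf8, with its SE, was 0.13 ± 0.17 (edgeR adjusted p = 0.686), against -0.26 without KO 1 and KO 4 (adjusted p = 0.176). It was -0.17 when the level of other cells' markers was a covariate (edgeR adjusted p = 0.523). The sign thus differed between these fits, and none of the 3 called Irf8. Whether other cells contributed to the Irf8 counts was not tested.

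Parp9 and Parp14 encode ADP-ribosyltransferase-family proteins linked to interferon signalling. Parp9 had 120.0, 127, 132 and 118 CPM in KO 1 to KO 4, against 111, 108, 109, 133 and 112 CPM in WT 1 to WT 5, so that WT 4 was the highest library and each other WT library was below every KO library. Its log2 fold change was 0.12 ± 0.06 (SE, edgeR adjusted p = 0.283), and 0.18 ± 0.05 without WT 4 (adjusted p = 0.0893). Parp14 had 309, 361, 356 and 320.2 CPM in KO, against 311, 289.9, 289, 359 and 320.1 CPM in WT. The groups overlapped in Parp14, and its log2 fold change was 0.10 ± 0.07 (SE, edgeR adjusted p = 0.42). Parp9 overlaps Dtx3l on the opposite strand, and because the labels do not say how strand was handled in counting, some reads of the pair cannot be assigned with certainty.

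Of the remaining 6 members, Ifi27l2a passed without WT 4. It encodes a small hydrophobic protein that responds strongly to interferon, lies on chromosome 12 (mm10, 103442167 to 103443680, minus strand) and overlaps no other annotated gene. It had 239, 239, 245 and 267 CPM in KO 1 to KO 4, against 203, 202, 173, 255 and 178 CPM in WT 1 to WT 5. Every KO library was above WT 1, WT 2, WT 3 and WT 5, and WT 4 was second only to KO 4. Its log2 fold change was 0.29 ± 0.11 (SE, edgeR adjusted p = 0.155), and 0.39 ± 0.06 without WT 4 (adjusted p = 0.0150). That call was lost when WT 3 (log2 fold change 0.35, edgeR adjusted p = 0.0657) or WT 5 (0.36, adjusted p = 0.0742) was left out as well, and without KO 1 and KO 4 together (0.36, adjusted p = 0.0529).

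Trim30a, a mouse protein that restrains NF-kB signalling and some retroviruses, had 195, 228, 239 and 188 CPM in KO 1 to KO 4, against 213, 183, 201, 261 and 207 CPM in WT 1 to WT 5. The groups overlapped, with a log2 fold change, with its SE, of -0.0041 ± 0.11 (edgeR adjusted p = 0.989), and near-identical relatives such as Trim30d could share its reads. Xaf1, a protein that promotes cell death, had 52.9 to 66.2 CPM in KO and 47.4 to 65.5 CPM in WT, Ifi35 had 62.5 to 84.4 CPM in KO and 61.2 to 75.8 CPM in WT, and Rtp4 had 31.9 to 43.5 CPM in KO and 29.9 to 47.7 CPM in WT. In these 3 genes WT 4 was the highest WT library. Ifi44 was the rarest member, with only 13 to 104 counts per library, and ran from 0.741 CPM in KO 1 to 6.84 CPM in WT 4. None of these 5 passed edgeR in either fit, and DESeq2 called Xaf1 without WT 4 (adjusted p = 0.0487).

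The levels of the members per kilobase of the longest annotated transcript spanned a wide range. The highest were Ly6e at 719 ± 30.1 CPM per kilobase in KO and 692 ± 20.7 in WT (SD, n = 4 and 5), Ifi27l2a at 535 ± 28.4 in KO and 436 ± 70.8 in WT, and Samhd1 at 333 ± 28.3 in KO and 331 ± 25.5 in WT. The lowest were Rsad2 at 2.75 ± 0.532 in KO and 2.45 ± 0.877 in WT, and Ifi44 at 0.766 ± 0.502 in KO and 0.772 ± 0.512 in WT. Of the 35 members, 14 overlap another annotated gene, 11 of them one on the opposite strand.

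The members moved together from library to library. WT 4 was the highest WT library in 31 of 35 members, where it was highest in 15.9% of all tested genes. It was the highest of all 9 libraries in 18 members, against 7.80%. KO 3 was the highest KO library in 23 members, against 19.1% of all tested genes. KO 1 was the lowest KO library in 21 members, against 27.0%, and WT 2 the lowest WT library in 20 members, against 22.1%. The mean log2 CPM over the members was 5.80, 6.09, 6.24 and 5.998 in KO 1 to KO 4, against 5.85, 5.76, 5.83, 6.32 and 5.87 in WT 1 to WT 5. WT 4 was thus the highest library, and WT 1, WT 2, WT 3, WT 5 and KO 1 formed the low end.

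**Figure D3:**
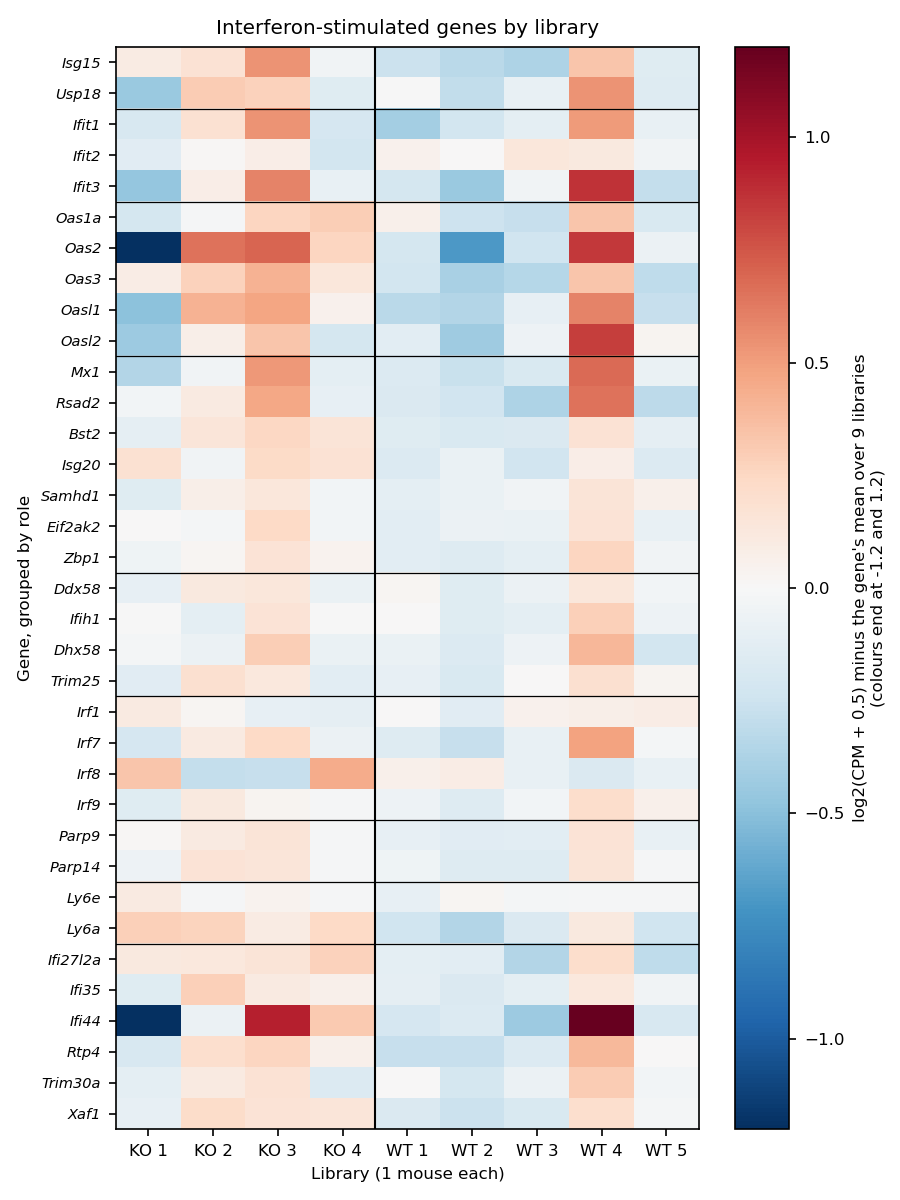
Log2(CPM + 0.5) of each member minus its mean over the 9 libraries, KO libraries on the left of the vertical line and WT libraries on the right, with lines between role groups. Red is above and blue below the mean, and the columns of KO 3 and WT 4 are red in most rows, while Irf8, Irf1 and Ly6e do not follow them.

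The size of the WT 4 difference varied between members, both within and between roles. The ratio of WT 4 to the mean of the other WT libraries had a median of 1.29 over the members. This ratio was above 1 in 34 of 35, against 49.0% of all tested genes, and above 1.2 in 23 members, against 5.96%. It was largest for Ifi44 (3.09), Oas2 (2.24) and Ifit3 (2.19), and below 1 only for Irf8 (0.889). By role, its median was 1.86 for the 5 OAS genes, 1.65 for the 3 IFIT genes, 1.24 for the 4 RNA sensors and 1.12 for the 4 interferon regulatory factors. The remaining roles had medians from 1.15 (Ly6a and Ly6e) to 1.57 (Isg15 and Usp18). Roles overlapped, with 1.05 (Ifit2) to 2.19 (Ifit3) in the IFIT genes and 0.889 (Irf8) to 1.54 (Irf7) in the interferon regulatory factors. The ratio of KO 3 to the mean of the other KO libraries was smaller, with a median of 1.16, and was above 1 in 31 members, against 48.0% of all tested genes. In KO 1 the same ratio had a median of 0.874 and was below 1 in 30 members, against 50.6% of all tested genes. It was lowest for Ifi44 (0.190) and Oas2 (0.275).

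The 8 members with the response element in the searched windows had a median WT 4 ratio of 1.55 (range 1.26 to 2.19), and WT 4 was the highest WT library in 8 of 8. In the 16 members without it the median ratio was 1.19 (range 0.889 to 3.09), and WT 4 was highest in 13. The ranges overlapped, and the largest ratio of all members, that of Ifi44, was in the set without the element. The median log2 fold change without WT 4 was 0.32 in the first set and 0.10 in the second. This split was not tested. The motif search covered neither the other 11 members, Ly6a and Ifi27l2a among them, nor more distant sequence.

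The spread within the groups was larger for the members than for most genes. The median within-group SD of log2 CPM was 0.18 for the members and 0.11 for all tested genes, and without WT 4 it was 0.13 for the members and 0.12 for all genes. The ratio of the highest to the lowest library had a median of 1.54 for the members and 1.31 for all tested genes.

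Summed markers of neutrophils, macrophages and plasma cells were highest in KO 1 and KO 4, and the members were highest in WT 4 and KO 3. Whether other cells contributed to the levels of the members was not tested. The 12 neutrophil markers summed to 50.7, 4.56, 9.91 and 141 CPM in KO 1 to KO 4, against 4.06 to 8.94 CPM in WT, of which WT 4 had 8.94 CPM. The 12 macrophage and monocyte markers summed to 123, 38.3, 64.8 and 191 CPM in KO, against 36.2 to 98.3 CPM in WT, with 64.3 CPM in WT 4. The 12 markers of plasmacytoid dendritic cells, the main producers of interferon alpha, summed to 266 to 320.4 CPM in KO and 290.0 to 299 CPM in WT, but this list holds the members Bst2 and Irf8. Their defining marker Siglech had 1 to 9 counts in KO libraries and 0 to 6 counts in WT libraries, with 3 in WT 4. WT 4 had the highest neutrophil sum of the WT libraries. It was their highest library in 3 of 5 tested neutrophil markers, 2 of 11 macrophage and monocyte markers, 2 of 8 plasmacytoid markers and 0 of 10 plasma cell markers. Over all tested genes it was their highest library in 15.9%. In WT 4, 1 of 12 neutrophil markers (Cxcr2), 1 of 12 plasmacytoid markers (Cox6a2) and 1 of 9 markers of conventional dendritic cells (Batf3) were at 0 counts. Leaving out KO 1 and KO 4, which left only KO 2 and KO 3, gave a median log2 fold change of the members of 0.19 with WT 4 and 0.31 without it. A fit with the level of neutrophil, macrophage and plasma cell markers as a covariate gave 0.11 with WT 4 and 0.25 without it.

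**Figure D4:**
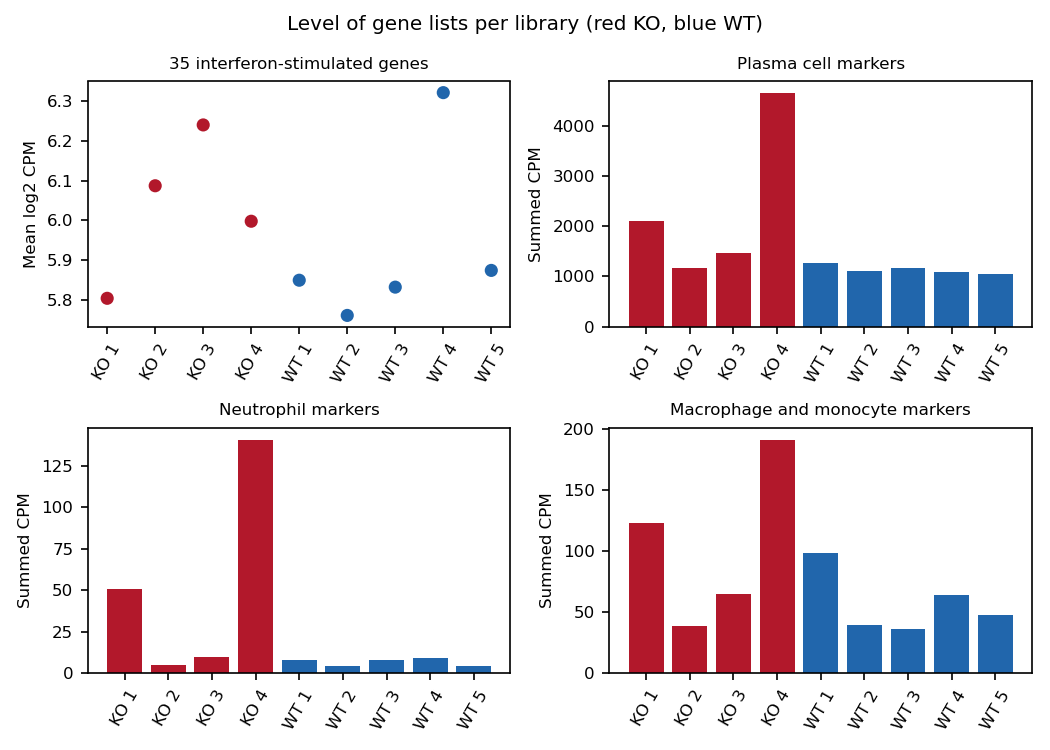
Mean log2 CPM of the 35 members (points, axis not from 0) and summed CPM of plasma cell, neutrophil, and macrophage and monocyte markers (bars) in each library, KO in red and WT in blue. The members are highest in WT 4 and KO 3, and the 3 marker sums are highest in KO 4.

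No called difference was found among the tested genes upstream of the members. Of the interferon ligands in the table, only Ifng had enough counts to test, while Ifnab summed to 3 counts and Ifnz to 8 over all libraries. The other 18 of 21 ligands searched for by symbol were not found in the table, so their levels cannot be judged from it. Ifng had 3.28 to 4.72 CPM in KO and 2.82 to 14.5 CPM in WT, the highest being WT 1, with a log2 fold change, with its SE, of -0.62 ± 0.49 (edgeR adjusted p = 0.502). Of 10 tested genes for interferon receptors and their signalling proteins, 0 were called by edgeR and 0 by DESeq2, and 1 had an unadjusted p under 0.05. That gene was Ifngr2, a chain of the interferon gamma receptor, with 38.4 to 51.4 CPM in KO and 46.2 to 55.1 CPM in WT and a log2 fold change, with its SE, of -0.22 ± 0.08 (edgeR adjusted p = 0.165). The second smallest p was that of the kinase gene Tyk2, at 0.07 ± 0.03 (adjusted p = 0.244).

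Genes for nucleic acid sensing and interferon induction gave 0 calls of 22 by edgeR and 0 by DESeq2, with 3 at an unadjusted p under 0.05. The smallest p values belonged to Mb21d1, which encodes the DNA sensor cGAS, at a log2 fold change, with its SE, of 0.33 ± 0.11 (edgeR adjusted p = 0.109), and Irf4, at 0.24 ± 0.08 (adjusted p = 0.119). Negative regulators of the pathway gave 0 calls of 18 by either tool and 0 at an unadjusted p under 0.05. Their smallest p values belonged to the ubiquitin ligase gene Rnf125, at 0.18 ± 0.09 (SE, edgeR adjusted p = 0.245), and the phosphatase gene Ptpn6, at 0.12 ± 0.07 (adjusted p = 0.295). Tnfaip3 of this list stood out in WT 1, at 1171 CPM, against 156 to 219 CPM in the other WT libraries and 146 to 176 CPM in KO. Its log2 fold change, with its SE, was -1.22 ± 0.74 (edgeR adjusted p = 0.386). A p that misses the threshold does not show that these genes were equal in KO and WT.

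In a wider list of 74 tested interferon-stimulated genes outside the members, edgeR called 1 higher with all libraries and 1 higher without WT 4, and 0 lower in either fit, where 1.4% and 0.347% of all tested genes were called higher. DESeq2 called 5 higher and 1 lower with all libraries, against 3.57% and 3.64% of all tested genes. Without WT 4 it called 7 higher and 1 lower, against 2.08% and 2.16%. The gene edgeR called with all libraries was Psmb10, a subunit of the immunoproteasome, with 123, 140.4, 131 and 127 CPM in KO 1 to KO 4, against 112, 110.4, 111, 121 and 118 CPM in WT 1 to WT 5. Every KO library was above every WT library, with a log2 fold change, with its SE, of 0.19 ± 0.05 (edgeR adjusted p = 0.0494), and without WT 4 it was 0.20 ± 0.05 (adjusted p = 0.0655). The gene called without WT 4 was Lgals3bp, a secreted glycoprotein, with 152, 149, 164 and 168 CPM in KO, against 134, 135, 127, 160.3 and 131 CPM in WT, and a log2 fold change of 0.26 ± 0.05 (adjusted p = 0.0283). With all libraries Lgals3bp did not pass (0.20 ± 0.06, adjusted p = 0.102). In this list 51 of 74 log2 fold changes were positive, and 56 of 74 without WT 4, against 51.5% and 51.1% of all tested genes. WT 4 was the highest WT library in 55 genes, against 15.9% of all tested genes.

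Of 17 GTPases that respond mainly to interferon gamma, edgeR called 1, Gbp2, higher in both fits, where 1.4% and 0.347% of all tested genes were called higher. DESeq2 called Gbp2 higher in both, and Gbp3 in addition without WT 4. Its shares over all tested genes were 3.57% higher with all libraries and 2.08% without WT 4. Gbp2, a guanylate-binding protein that attacks the membranes around intracellular pathogens, had 138, 148, 153 and 134 CPM in KO 1 to KO 4, against 111, 109, 112, 130.2 and 120.2 CPM in WT 1 to WT 5. The KO libraries all lay above the WT libraries, of which WT 4 was the highest. The log2 fold change was 0.30 ± 0.06 (SE, edgeR adjusted p = 0.0203), and 0.34 ± 0.05 without WT 4 (adjusted p = 0.0135). In this list 11 of 17 log2 fold changes were positive with all libraries and 14 of 17 without WT 4, against 51.5% and 51.1% of all tested genes. WT 4 was the highest WT library in 15 of the 17, against 15.9% of all tested genes.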

How the data were processed

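The values deposited by the authors are raw counts for each gene symbol in 9 libraries, 1 per mouse, made from total RNA with a stranded TruSeq kit per the labels' protocols. STAR 2.7, DESeq2 and the build mm10 are listed in the submitters' processing notes without their roles. Sources used here do not give the program, annotation and strand rule that made the counts. The test was edgeR's (4.0.16, under R 4.3.3; robust quasi-likelihood, trimmed-mean scaling, default expression filter, Benjamini-Hochberg over all tested genes, threshold 0.05), with and without WT 4, and the pipeline was checked on simulated counts. CPM is the count scaled to the effective library size. Log2 CPM used a prior count of 2, and standard errors came from the fold change and the F statistic. Also tried were DESeq2 1.42.0, limma-voom (limma 3.58.1), other scalings and filters, replicate blocks, a marker covariate and leaving out libraries.

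The members and lists were chosen with earlier results of these data known. Values per library are given for members called in either fit and for the most abundant 2 of each role, and for other lists the called genes, or else the 2 with the smallest p. Members named beyond this, and Tnfaip3, were chosen after their values were seen. Depth was 15269014 to 17425634 counts, and 3 counts equal 0.171 to 0.197 CPM, counting error alone. No 2 libraries were duplicates (chi-square per degree of freedom of at least 2.34). Coordinates and overlaps are from GENCODE M21 and promoters from RefSeq. Replicate numbers were not used to pair samples in the main comparison.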

Additional observations from a re-analysis of the deposited data

Results flagged for a closer look

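Each member was examined for a library far from the others of its group, in 70 groups of libraries. In 19 of them the highest library lay further from the next than Dixon's 95% critical value allows for groups of 4 KO or 5 WT libraries, where chance flags about 1 in 20 groups. The members share their libraries, so these groups are not independent of each other. WT 4 had also been set aside because the members were high in it, so its flags restate that choice and are not further support for it.

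In KO, 2 of the 19 were found, both in KO 3, with Eif2ak2 at 77.8 CPM and Dhx58 at 55.7 CPM. In WT, all 17 were in WT 4. Among the antiviral effectors and sensors, WT 4 had Mx1 at 25.2 CPM, Rsad2 at 16.8 CPM, Bst2 at 52.2 CPM, Eif2ak2 at 73.9 CPM, Zbp1 at 204 CPM and Dhx58 at 59.8 CPM. Of the OAS genes, WT 4 had Oas2 at 33.8 CPM, Oas3 at 70.2 CPM, Oasl1 at 12.5 CPM and Oasl2 at 29.3 CPM. It had Isg15 at 31.4 CPM, Usp18 at 60.6 CPM, Ifit1 at 59.5 CPM, Ifit3 at 36.6 CPM, Irf7 at 139 CPM, Parp9 at 133 CPM and Ifi44 at 6.84 CPM.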

How the results depend on the processing

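The median log2 fold change of the members was positive under every alternative run. With all libraries (1 member and 418 genes called), DESeq2 gave 4 members and 919 genes, leaving out KO 1 and KO 4 gave 0 and 118, and the marker covariate gave 0 and 88. Leaving out 1 library gave 0 to 3 members and 97 to 697 genes. Without WT 4 (3 members, 134 genes), DESeq2 gave 8 and 538, leaving out KO 1 and KO 4 gave 6 and 58 with a median of 0.31, and the covariate gave 53 genes with a median of 0.25. Leaving out 1 more library gave 2 to 6 members, medians of 0.11 to 0.26, and 24 to 197 genes. With no filter on low counts, 90 genes were called higher without WT 4, against 44. Otherwise the other scalings, filters and limma-voom moved no total of members or genes called by over 1.5 times, and no called member changed direction. The causes of the moved values were not tested.

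The replicate numbers do not pair the samples: deviations of same-numbered libraries correlated at -0.07 to 0.10 by title number and -0.26 to 0.10 by the number in the library name, and no library correlated best with its own number. A block by title number gave 0 members and 26 genes with all libraries, and 0 and 9 without WT 4. A block by library-name number gave 1 member, Oas3, and 443 genes with all libraries, and 2 members and 87 genes with a median of 0.094 without WT 4. Depth limits Ifi44, with 13 to 104 counts per library.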
